A study of Mus musculus with 2 samples.

Results

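Hox genes encode homeodomain transcription factors that lie side by side in 4 clusters, Hoxa, Hoxb, Hoxc and Hoxd, and carry a paralog number that follows their order in the cluster. Genes with low paralog numbers are switched on early and near the head of the embryo, and those with high numbers later and further toward the tail, so that a combination of Hox genes marks a position along the body and along the gut tube. In the gut, Hox genes are known mainly from the mesenchyme and muscle, with the highest paralog numbers at the caecum, colon, rectum and anal sphincter, while Hoxb13 is also known from the epithelium of the hindmost colon and rectum. Here the Hox genes are the 39 gene symbols that consist of Hox, a cluster letter and a paralog number, out of 40879 symbols in the files, with 11 genes in Hoxa, 10 in Hoxb, 9 in Hoxc and 9 in Hoxd.

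RNA was taken from the intestine of C57BL/6 mice aged 8 weeks that were either wild type (WT) or labelled ERAP1+/- (hetero type in the labels), and equal amounts from 3 mice were pooled into 1 library per genotype. The ERAP1+/- mice descend from an ES cell clone with the tm1a allele of Erap1, which encodes an aminopeptidase that trims peptides for MHC class I, crossed to a Cre strain that removes the loxP-flanked exons. The promoter behind Cre is not given in the sources used here, and the methods call the mice germ-free and also housed under specific pathogen-free conditions. The labels name no treatment and no segment of the intestine. The methods describe intestine tissue, while the paper's abstract calls it colonic and its discussion places the comparison at steady state. The libraries were made with QuantSeq, which reads the 3' ends of polyadenylated transcripts, so that a level was not divided by transcript length. Levels are given as CPM, the reads scaled to a common library size after TMM adjustment (trimmed mean of M values).

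The files held 8114826 counted reads for the WT library and 8907515 for the library labelled ERAP1+/-. Erap1 itself had 229 and 2 reads, so that its level in the second library was 0.730% of that in the first (95% interval 0.0878% to 2.67%). This level goes against a heterozygous genotype, although the reads come from the 3' end and not from the removed exons. For this reason the second library is called the library labelled ERAP1+/- throughout. The libraries also stand apart in tissue markers. All 8 epidermis markers, among them Flg and Krt1, were over 2-fold lower in the library labelled ERAP1+/-, with a summed level of 2487 CPM in WT and 29.2 CPM there, and so were all 10 skeletal muscle markers (979 and 20.5 CPM). The colon markers, among them Car1, Car4, Slc26a3 and Aqp8, summed to 5498 and 3226 CPM, with 1 of the 5 (Car4) over 2-fold lower. Of the small intestine markers, Gata4, Sis and Apoa4 had no read in either library, but others were detected in both. Fabp6 had 66 and 77 reads, Slc10a2 had 44 and 57, and Enpep had 28 and 31. Of the 10 small intestine markers 3 had at least 10 reads and 0 of these were past 2-fold, and the 10 markers of intestinal epithelium summed to 6492 and 7215 CPM, with 1 over 2-fold higher (Muc2), 1 over 2-fold lower (Krt20) and a median log2 ratio of -0.31.

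With 1 library per genotype there is no replicate check and no p-value is given. Ratios compare these libraries, and each carries an exact 95% interval that covers counting error only, not differences between mice. A count of 0 allows up to 3 reads, which corresponds to 0.386 CPM for WT and 0.322 CPM for the other library. In bulk tissue, fewer cells of a type and less RNA per cell cannot be told apart. Paired read counts below give WT first and the library labelled ERAP1+/- second, and log2 ratios are negative where the second is lower. Scaling by the total count in place of TMM moves every log2 ratio up by 0.13, so that negative values nearer to 0 than this turn positive.

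Of the 39 Hox genes, 29 had at least 10 reads over both libraries, 7 had 1 to 9 reads and 3 (Hoxb1, Hoxc12 and Hoxd1) had none. All members together had 6934 and 5944 reads, or 892 CPM in WT and 639 CPM in the library labelled ERAP1+/-, a ratio of 0.716 (95% interval 0.692 to 0.741). The difference was not shared evenly among the clusters. Hoxc summed to a level 6.25-fold lower in the library labelled ERAP1+/- (3.97 to 10.2), Hoxd 2.02-fold lower (1.88 to 2.17) and Hoxb 1.29-fold lower (1.23 to 1.35). Hoxa had a ratio of 0.971, with an interval of 0.895 to 1.05 that includes 1, and its log2 ratio of -0.04 became 0.083 with total count scaling.

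**Figure D1:**
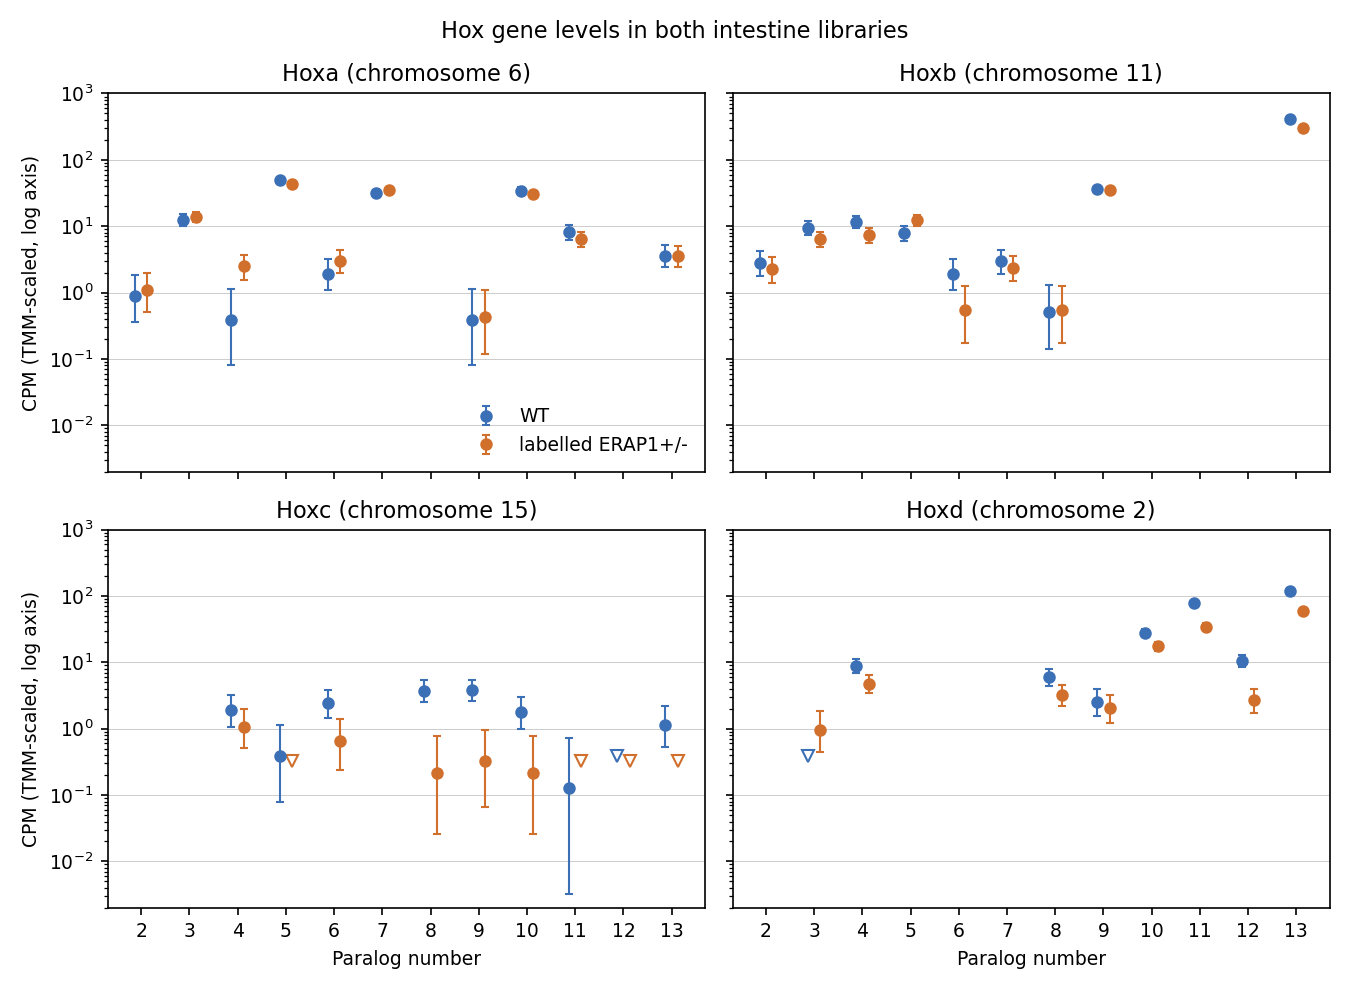
TMM-scaled CPM on a log axis (vertical) for the Hox genes of paralog numbers 2 to 13 (horizontal), 1 panel per cluster, with points for the WT library and the library labelled ERAP1+/-, bars for 95% Poisson intervals and open triangles at the 3-read floor for genes with no read. Hoxb13 stands highest in both libraries (409 and 306 CPM), and in the Hoxc panel the 5 genes with at least 10 reads (Hoxc4, Hoxc6, Hoxc8, Hoxc9 and Hoxc10) each have the lower point in the library labelled ERAP1+/-.

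Of the 29 Hox genes with at least 10 reads, 8 were over 2-fold lower in the library labelled ERAP1+/- (Hoxb6, Hoxc6, Hoxc8, Hoxc9, Hoxc10, Hoxd11, Hoxd12 and Hoxd13) and 1 was over 2-fold higher (Hoxa4). This is 27.6% and 3.45% of them, beside 8.78% lower and 7.22% higher among the 16142 features with as many reads. Low counts spread more widely, so the 22 Hox genes with 10 to 500 reads were also set beside the 11010 features in that range. Of these genes 6 were lower and 1 higher past 2-fold, beside 11.5% and 10.1% of the features. By the counting interval alone, 15 Hox genes lay below a ratio of 1 and 2 above it (Hoxa4 and Hoxb5), beside 23.8% and 20.6% of all features. By a stricter rule, which asks that log2(CPM + 1) reach 4 in either library with a difference past 2-fold on that scale, 8 Hox genes passed the level, of which 1 (Hoxd11) was lower and 0 were higher, beside 3.96% and 1.39% of the 8013 features past the level. The median log2 ratio of the 29 genes was -0.42, with 23 of them below 0, and the median over all 16142 features was 0.00, with 49.7% below 0.

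**Figure D2:**
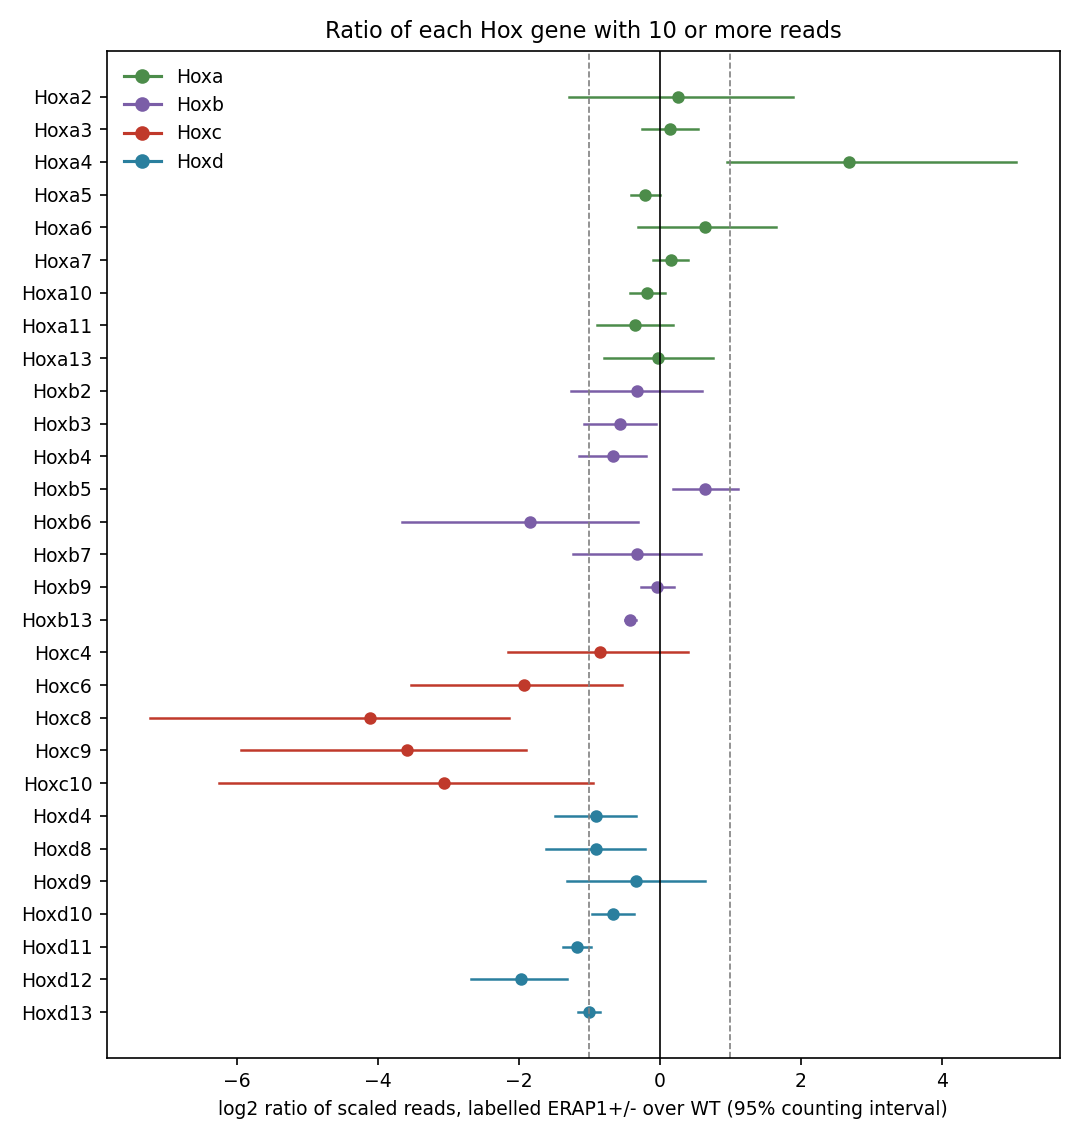
The log2 ratio of scaled reads, the library labelled ERAP1+/- over WT (horizontal), for the 29 Hox genes with at least 10 reads, coloured by cluster, with lines for 95% counting intervals and dashed lines at 2-fold. All 5 Hoxc and all 7 Hoxd genes lie below 0, and Hoxa4 lies alone on the right at 2.68.

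The posterior Hoxd genes carried most of the Hoxd reads. In the GRCm38 build of the mouse genome the Hoxd genes span chr2:74668310-74765142 on the plus strand (GENCODE M21), with Hoxd13 at one end and Hoxd1 at the other. Hoxd11, Hoxd12 and Hoxd13 lie next to each other there, and their start windows are shown because all 3 were over 2-fold lower in the library labelled ERAP1+/-. Each is the RefSeq window from 250 bases before to 50 after an annotated start, on GRCm38.p6 and read on the plus strand, at chr2:74679308-74679607 for Hoxd11, chr2:74674763-74675062 for Hoxd12 and chr2:74667975-74668274 for Hoxd13. Capitals mark TTTATG, a core sequence bound by the caudal-type homeodomain factors CDX1 and CDX2, or its reverse complement CATAAA.
Hoxd11: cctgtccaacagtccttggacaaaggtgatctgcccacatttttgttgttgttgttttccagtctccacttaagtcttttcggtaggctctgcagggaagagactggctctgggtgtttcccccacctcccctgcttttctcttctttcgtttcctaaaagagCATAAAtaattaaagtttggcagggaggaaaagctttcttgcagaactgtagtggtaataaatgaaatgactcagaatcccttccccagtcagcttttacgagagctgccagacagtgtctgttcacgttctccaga
Hoxd12: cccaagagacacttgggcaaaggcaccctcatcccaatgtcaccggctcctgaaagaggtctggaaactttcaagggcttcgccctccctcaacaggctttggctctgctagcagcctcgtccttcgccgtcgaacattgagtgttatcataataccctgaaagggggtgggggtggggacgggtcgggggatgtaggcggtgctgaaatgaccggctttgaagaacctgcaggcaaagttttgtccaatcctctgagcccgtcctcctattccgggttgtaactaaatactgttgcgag
Hoxd13: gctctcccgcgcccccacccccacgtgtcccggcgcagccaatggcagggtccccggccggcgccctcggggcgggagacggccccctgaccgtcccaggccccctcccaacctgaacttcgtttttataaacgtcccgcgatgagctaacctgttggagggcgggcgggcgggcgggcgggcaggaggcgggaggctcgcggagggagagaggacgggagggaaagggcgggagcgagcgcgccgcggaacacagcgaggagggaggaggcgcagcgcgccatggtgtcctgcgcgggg
The Hoxd11 window shown held 1 match and those of Hoxd12 and Hoxd13 none. CG dinucleotides numbered 4 in that of Hoxd11, 13 in that of Hoxd12 and 37 in that of Hoxd13. RefSeq gives Hoxd11 another start, whose window at chr2:74682073-74682372 held 25 CG dinucleotides and 0 matches.

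Hoxd13, which with Hoxd12 is known for the formation of the anal sphincter, had 918 and 548 reads, or 118 and 58.9 CPM. The level was 2.01-fold lower in the library labelled ERAP1+/- (1.80 to 2.23), at the edge of the 2-fold threshold, and scaling by the total count put the log2 ratio at -0.88, short of it. Hoxd12 had 82 and 25 reads, a 3.93-fold lower level (2.48 to 6.42) and the largest difference in the cluster. Hoxd11, known with its paralogs for the forearm and kidney, had 607 and 323 reads, 2.25-fold lower (1.96 to 2.58). The intervals of these 3 genes all lay below a ratio of 1. Hoxd10, a gene of the lumbar spinal cord and hindlimb, had 217 and 164 reads and a log2 ratio of -0.66 (-0.97 to -0.36).

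Of the remaining Hoxd genes, those with at least 10 reads also had log2 ratios below 0. Hoxd4, a marker of the boundary between hindbrain and spinal cord, had 69 and 44 reads, a log2 ratio of -0.91 (-1.49 to -0.34). Hoxd8 had 47 and 30 reads and also -0.91 (-1.62 to -0.22). For Hoxd9, with 20 and 19 reads, the interval of the log2 ratio ran from -1.32 to 0.65, so a difference was not detectable at this depth. Over the 7 Hoxd genes with at least 10 reads the median log2 ratio was -0.91 and 7 of 7 were below 0. Hoxd3 stood apart with 0 and 9 reads, 2.51-fold higher in the library labelled ERAP1+/- against the floor of 3 reads. The counting interval of this ratio starts at 1.65. Its annotated gene body overlaps that of Hoxd4 on the same strand, with 388 bases of exon in common, so reads there may be split between both genes.

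Smooth muscle markers were also lower in the library labelled ERAP1+/-. The 10 genes summed to 9087 CPM in WT and 4719 CPM there, with a median log2 ratio of -0.90 and 2 of them (Myh11 and Tagln) over 2-fold lower. For 1 of the 10, Myocd, with 240 and 249 reads, the interval of the ratio included 1 (0.723 to 1.04). Myh11, the heavy chain of smooth muscle myosin, had 15691 and 8708 reads, and Tagln, an actin-binding protein of smooth muscle, had 18546 and 9767. The Hoxd reads per smooth muscle marker read changed by a factor of 0.954 between the libraries (0.885 to 1.03), an interval that includes 1, while the Hoxa reads per smooth muscle marker read changed by a factor of 1.87 (1.72 to 2.03). The 12 fibroblast markers, which are also mesenchymal, had a median of -0.05, with 1 over 2-fold higher (Foxf2) and 0 over 2-fold lower. The part of the smooth muscle content in the Hoxd difference was not tested.

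Hoxc was the cluster with the fewest reads and the widest gap between the libraries. Its 9 genes lie at chr15:102921103-103036852 on the plus strand and had 120 reads in all in the WT library and 23 in the library labelled ERAP1+/-. Hoxc8 and Hoxc9, known from the thoracic skeleton and motor neurons, had 29 and 2 reads and 30 and 3 reads. Their levels were 17.4-fold lower (4.39 to 150) and 12.0-fold lower (3.72 to 61.3). Hoxc10 had 14 and 2 reads, 8.38-fold lower with an interval of 1.92 to 76.0. The intervals are wide because the second library held 3 reads or fewer for each of these genes, but all lay past 1. Hoxc6 had 19 and 6 reads, 3.79-fold lower (1.46 to 11.6). Hoxc4, at the anterior end, had 15 and 10 reads, and its log2 ratio of -0.84 had an interval from -2.16 to 0.41 that includes 0.

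Whether the gap differed along Hoxc was not resolved. Paralogs 9 to 13 of Hoxc summed to 54 and 5 reads, 12.9-fold lower (5.21 to 41.4), and paralogs 4 to 8 to 66 and 18 reads, 4.39-fold lower (2.58 to 7.86), with intervals that overlap. Hoxc13, known for its role in hair and nail, had 9 reads in the WT library and none in the library labelled ERAP1+/-. Against the floor it was 3.59-fold lower, with an interval that starts at 2.36-fold. Hoxc5 had 3 and 0 reads and Hoxc11 had 1 and 0. In the annotation, the long gene body of Hoxc5 runs across Hoxc10, Hoxc9, Hoxc8 and Hoxc6 on the same strand and shares 166 bases of exon with Hoxc10. Without the members whose gene bodies overlap, the Hoxc gap narrowed from 6.25-fold to 2.99-fold, a log2 ratio of -1.58 (-2.80 to -0.47) that rests on 25 and 10 reads, mostly of Hoxc4 and Hoxc13.

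Markers of the skin moved with the Hoxc genes. Of the 11 hair follicle markers with at least 10 reads, 10 were over 2-fold lower in the library labelled ERAP1+/-, and their list summed to 96.6 and 2.58 CPM. Krt25 and Krt71, keratins of the inner root sheath, had 297 and 136 reads in the WT library, and 9 of the 12 listed markers had no read in the other library. The 10 skeletal muscle markers had a median log2 ratio of -5.58 and the 8 epidermis markers one of -6.87. The Hoxc median was -3.07 over the 5 genes with at least 10 reads, nearer to 0 than the medians of these lists. The hair follicle median, -3.76, is that of Krt27, which had 34 and 0 reads, and so is a bound set by the floor. Hoxc8, at -4.12, lay further from 0 than this. The share of the Hoxc reads that came from such tissue was not tested.

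Hoxb held more than any other cluster in both libraries, almost wholly through 1 gene. The cluster spans chr11:96194316-96368256 on the plus strand, with Hoxb13 set apart at its posterior end. Hoxb13 had 3176 and 2848 reads, or 409 and 306 CPM, and so was the highest Hox gene in both libraries. Its ratio was 0.749 (0.712 to 0.788), and its neighbour in the cluster, Hoxb9, with 280 and 327 reads, had a log2 ratio of -0.04 (-0.27 to 0.20). Total count scaling turned the sign of Hoxb9, with a value of 0.09. Without Hoxb13, the cluster had a log2 ratio of -0.13 with an interval that includes 0 (-0.30 to 0.04), against -0.37 with it.

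The anterior Hoxb genes did not share 1 direction. Hoxb3 (74 and 60 reads) and Hoxb4 (90 and 68), the latter known from blood stem cells, had log2 ratios of -0.56 and -0.66, with intervals below 0. Hoxb5, known in the neural crest cells that form the enteric nervous system, had 61 and 114 reads and was 1.56 times as high in the library labelled ERAP1+/- (1.13 to 2.17). Hoxb6 had 15 and 5 reads, 3.59-fold lower (1.24 to 12.6). For Hoxb2 (22 and 21 reads) and Hoxb7 (23 and 22) the intervals included 1, and Hoxb8 had 4 and 5 reads. Hoxb5 and its neighbour Hoxb6 thus differed in opposite directions, with intervals that do not overlap.

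The enteric neuron and glia markers moved in the direction of Hoxb5. Their 12 genes summed to 134 CPM in WT and 205 CPM in the library labelled ERAP1+/-, with a median log2 ratio of 0.78, 4 genes over 2-fold higher and 1 over 2-fold lower. The neuropeptide gene Vip had 129 and 348 reads and the neuronal gene Uchl1 147 and 356. Ret, the receptor that Hoxb5 is known to control in the neural crest, had 41 and 24 reads and was the gene over 2-fold lower. Its log2 ratio of -1.03 lay at the edge of the threshold. Total count scaling left 5 markers past 2-fold higher and 0 past 2-fold lower. The part of enteric neurons in the Hoxb5 level was not tested. A noncoding gene on the other strand, Hoxb5os, covers Hoxb5 and Hoxb6 and had 66 and 67 reads. Its exons share 100 bases with those of Hoxb5 and 0 with those of Hoxb6. The strand setting of the counting is not given in the sources used here. Reads in exon bases shared by a gene and its antisense partner therefore cannot be told apart.

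**Figure D3:**
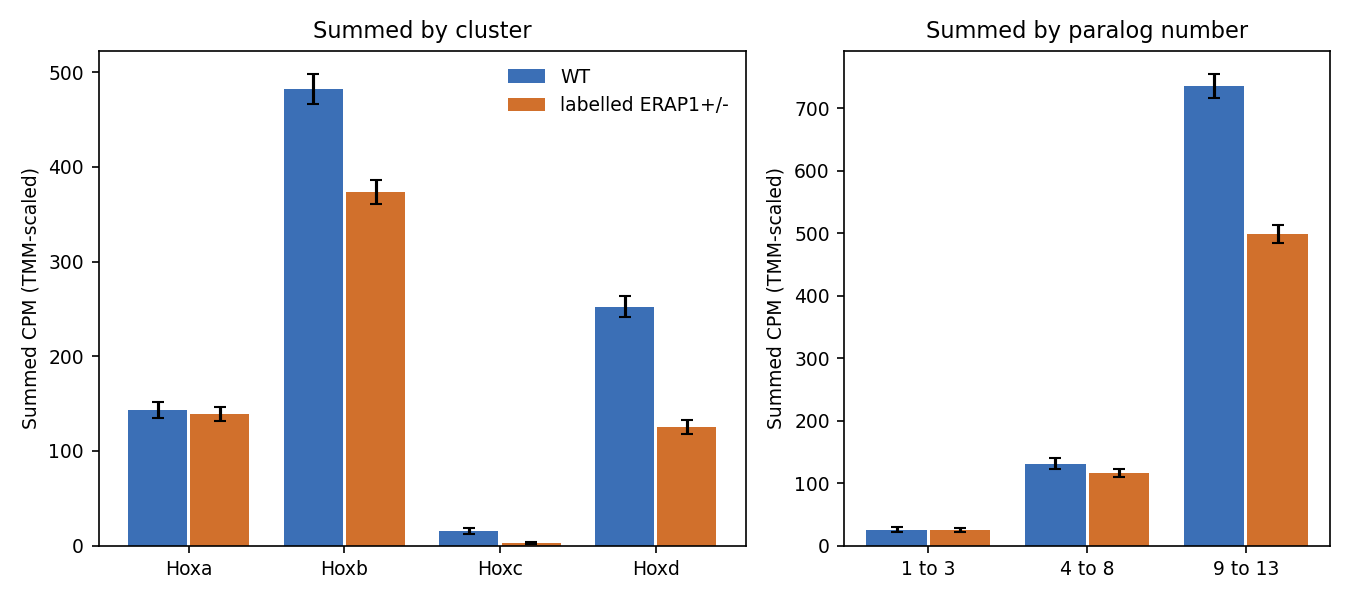
Summed TMM-scaled CPM of the Hox genes by cluster (left) and by paralog number (right), with bars from 0 for the WT library and the library labelled ERAP1+/- and error bars for 95% Poisson intervals. The Hoxa bars nearly match (143 and 139 CPM) while the Hoxd bar of the library labelled ERAP1+/- stands at 125 CPM beside 252 CPM in WT.

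In Hoxa, most genes had a like level in both libraries. The cluster lies at chr6:52155590-52260880 on the minus strand and summed to 1109 and 1289 reads. Hoxa5, required for lung and gut development, had 383 and 397 reads, with a ratio of 0.866 whose interval just missed 1 (0.751 to 0.999). Hoxa7 had 245 and 326 reads (log2 ratio 0.15, interval -0.09 to 0.40) and Hoxa10, known for the uterus, 265 and 280 (-0.18, interval -0.43 to 0.07). Hoxa3, a gene of the thymus and parathyroid, had 96 and 127 reads, and its interval also included 1. Toward the tail end, Hoxa11 had 63 and 59 reads (-0.35) and Hoxa13, known for the digits and the genital tract, 28 and 33 (-0.02), and both intervals included 1. The sign of Hoxa13 turned with total count scaling, to 0.10. Hoxa2 had 7 and 10 reads and Hoxa9 had 3 and 4.

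Hoxa4 was the exception in this cluster, with 3 and 23 reads and a ratio of 6.40 (1.93 to 33.3). The genes beside it did not share this difference, with ratios of 1.11 for Hoxa3 (0.841 to 1.46) and 0.866 for Hoxa5 (0.751 to 0.999). Hoxa6, which lies beyond Hoxa5, had 15 and 28 reads, a ratio of 1.56 (0.805 to 3.14). The antisense gene Hoxaas3 lies at chr6:52175217-52215076 on the plus strand, across from Hoxa3, Hoxa4, Hoxa5, Hoxa6 and Hoxa7, and had 20 and 109 reads, a ratio of 4.55 (2.81 to 7.75). Its exons share no base with those of Hoxa4, and 297 bases with those of Hoxa3 and 586 with those of Hoxa7. Another antisense gene, Gm29430, shares 255 bases of exon with Hoxa4 and was not analysed here. Whether the Hoxa4 reads come from Hoxa4 itself was not tested.

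Ratios between clusters within a library need no scaling between libraries. For each Hoxa read there were 1.77 Hoxd reads in WT and 0.901 in the library labelled ERAP1+/-, a 1.96-fold lower ratio (1.76 to 2.19). The Hoxc reads per Hoxa read were 6.06-fold lower (3.82 to 9.998) and the Hoxb reads per Hoxa read 1.25-fold lower (1.14 to 1.38). The gap in Hoxc also exceeded that in Hoxd, with Hoxc reads per Hoxd read 3.09-fold lower (1.95 to 5.09). As shares of all Hox reads, Hoxa made up 16.0% in WT and 21.7% in the library labelled ERAP1+/-, Hoxb 54.0% and 58.4%, Hoxc 1.73% and 0.387%, and Hoxd 28.3% and 19.5%. The exact binomial 95% intervals of these shares did not overlap between the libraries for any of the 4 clusters. For Hoxd they ran from 27.2% to 29.3% and from 18.5% to 20.6%. These intervals cover counting error only, and the 4 shares add up to the whole, so they are not separate differences. The Hoxa and Hoxb shares were higher although their TMM-scaled levels were not, with ratios of 0.971 and 0.774. By the counting interval, 23.8% of all features with at least 10 reads lay below a ratio of 1 and 20.6% above it.

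The same comparison was made between paralogs, which share the most similar homeodomains. Hoxd13 reads per Hoxa13 read were 1.97-fold lower in the library labelled ERAP1+/- (1.14 to 3.43). Hoxd11 per Hoxa11 was 1.76-fold lower (1.18 to 2.62) and Hoxd10 per Hoxa10 1.40-fold lower (1.07 to 1.84). Hoxd13 also differed from Hoxb13, with 1.502-fold fewer reads per Hoxb13 read (1.33 to 1.69). Hoxb13 per Hoxa13 was 1.31-fold and Hoxd4 per Hoxb4 1.18-fold lower, with intervals that included 1. Each of these 3 ratios of a Hoxd gene to its Hoxa paralog thus differed between the libraries by more than counting error.

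By paralog number, the Hox genes of the intestine were mostly posterior in both libraries. Paralogs 9 to 13 took 82.4% of the Hox reads in WT and 78.0% in the library labelled ERAP1+/-, with 735 and 498 CPM. Their summed log2 ratio was -0.56, and -0.77 without Hoxb13, and all 12 of those with at least 10 reads lay below 0. Total count scaling put 2 of the 12, Hoxa13 and Hoxb9, above 0. Paralogs 1 to 3 had 200 and 229 reads (log2 ratio -0.06, less than the shift between scalings, interval -0.34 to 0.22) and paralogs 4 to 8 had 1021 and 1080 (-0.18, interval -0.30 to -0.05). Among single paralog numbers, the lowest ratios were those of paralog 12 (Hoxd12 alone, since Hoxc12 had no read), paralog 8 (80 and 37 reads, log2 ratio -1.37) and paralog 11 (671 and 382 reads, -1.07).

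In order of level, Hoxb13 led the WT library, followed by Hoxd13, Hoxd11 (78.1 CPM), Hoxa5 (49.3 CPM), Hoxb9 (36.0 CPM) and Hoxa10 (34.1 CPM). The intervals of Hoxb9 and Hoxa10 overlap, and those of the genes before them do not. In the library labelled ERAP1+/-, Hoxb13 and Hoxd13 again came first, then Hoxa5 (42.7 CPM), Hoxb9 (35.2 CPM), Hoxa7 (35.0 CPM) and Hoxd11 (34.7 CPM), and the intervals of these last 4 genes overlap, so that their order is not resolved.

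The caudal genes Cdx1 and Cdx2, which act above Hox genes in the embryo and mark intestinal epithelium, were higher in the library labelled ERAP1+/-. Cdx1 had 1080 and 1772 reads, a ratio of 1.37 (1.27 to 1.48), and Cdx2 had 86 and 172, a ratio of 1.67 (1.28 to 2.19). Cdx4 had no read, and the related ParaHox gene Pdx1 of pancreas and duodenum had 0 and 10. Of the 3 genes of this list with at least 10 reads, 1 (Pdx1) was past 2-fold higher against the floor, at 2.78-fold. Its counting interval starts at 1.87-fold, short of that threshold. The direction of Cdx1 and Cdx2 was opposite to that of the Hoxd and Hoxc sums.

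Start windows of the Hox genes were searched for the CDX core TTTATG on both strands. Windows were given for 22 of the 39 members, 24 windows in all, and 5 of them (20.8%) held a match, beside 11.9% of the 32851 windows of all genes. The TATA box core TATAAA on both strands was in 16.7% of the Hox windows and 13.6% of all windows. A match is a description of the sequence and not a bound site. Hoxd4 and Hoxa7 are shown here as the members with at least 10 reads whose windows held 2 CDX core matches, in capitals as above. They lie at chr2:74721728-74722027 on the plus strand and chr6:52218524-52218823 on the minus strand of GRCm38.p6.
Hoxd4: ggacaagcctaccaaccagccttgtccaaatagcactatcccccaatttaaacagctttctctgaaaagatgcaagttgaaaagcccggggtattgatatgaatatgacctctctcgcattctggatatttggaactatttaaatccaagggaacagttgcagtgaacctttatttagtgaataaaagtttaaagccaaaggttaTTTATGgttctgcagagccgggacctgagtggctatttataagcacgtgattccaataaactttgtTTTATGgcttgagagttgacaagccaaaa
Hoxa7: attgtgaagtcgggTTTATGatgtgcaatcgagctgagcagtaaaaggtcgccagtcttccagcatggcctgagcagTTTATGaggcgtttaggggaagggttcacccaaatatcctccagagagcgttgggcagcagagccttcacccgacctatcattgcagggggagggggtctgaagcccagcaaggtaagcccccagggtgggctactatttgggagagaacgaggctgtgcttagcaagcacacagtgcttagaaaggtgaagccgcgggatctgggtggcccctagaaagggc
Hoxd4 had a log2 ratio of -0.91 with an interval below 0, and Hoxa7 one of 0.15 with an interval that includes 0. The window of Hoxb8, with 4 and 5 reads, also held 2 matches, and the other windows with a match were those of Hoxd3 and the first of Hoxd11. The Hox windows held a median of 14.5 CG dinucleotides and 57.7% GC, against 7 and 52.7% over all windows.

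**Figure D4:**
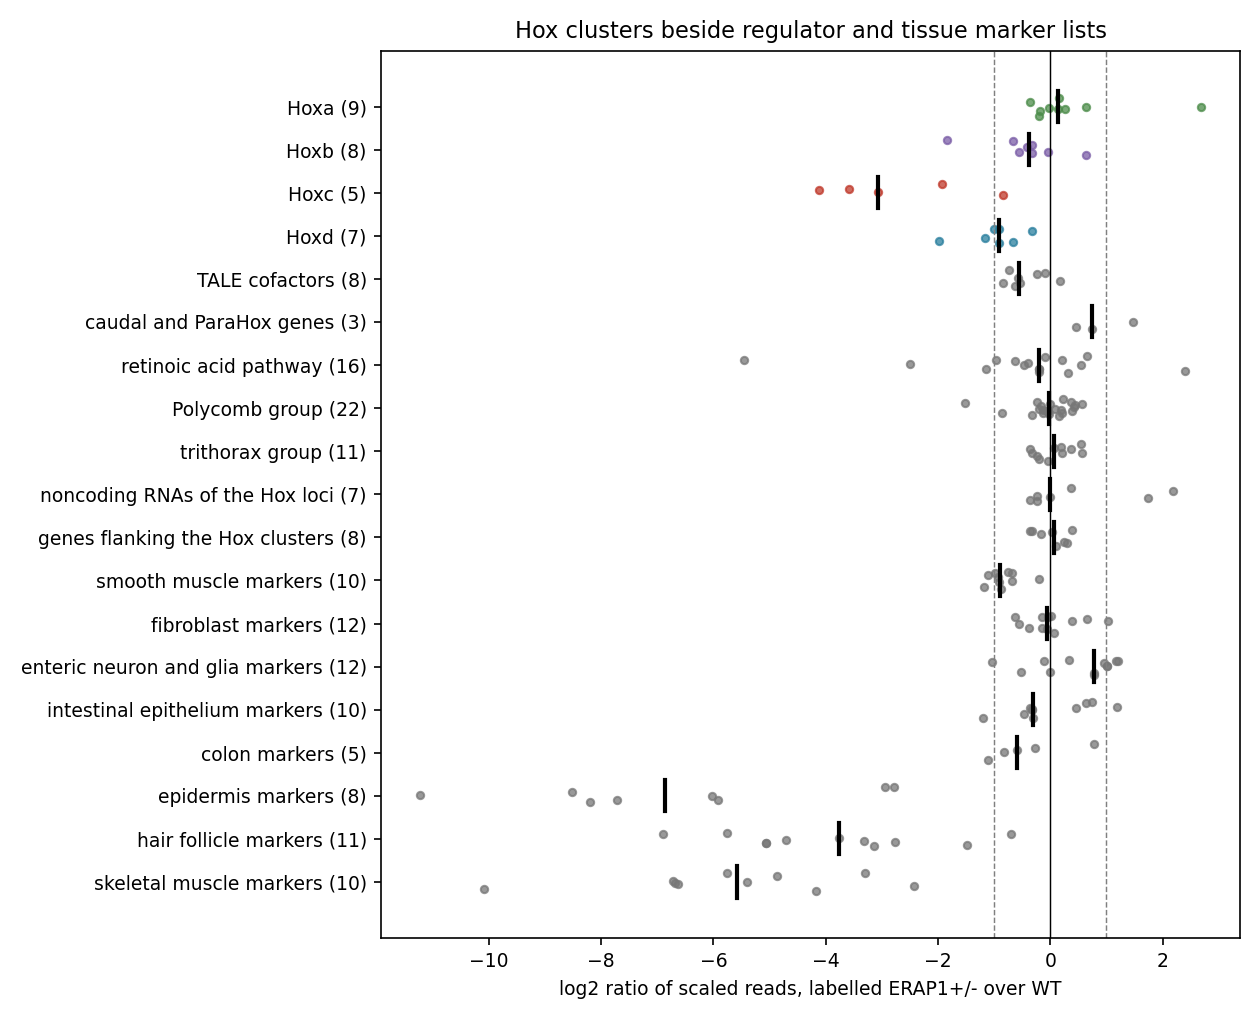
The log2 ratio of scaled reads, the library labelled ERAP1+/- over WT (horizontal), for each gene with at least 10 reads (points) of the 4 Hox clusters and of 15 other lists, with the number of genes in parentheses, bars for medians and dashed lines at 2-fold. The Hoxd median of -0.91 lies beside that of the smooth muscle markers at -0.90, and the chromatin regulators lie near 0.

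HOX proteins bind DNA together with the TALE homeodomain proteins, such as those of the Meis and Pknox families. Of the 8 TALE cofactor genes with at least 10 reads, 0 were past 2-fold in either direction, and 7 lay below 0 (1 of them by less than the shift between scalings), with a median log2 ratio of -0.55. Meis2 had 500 and 385 reads (log2 ratio -0.64) and Meis1 168 and 135 (-0.58). The Polycomb group, which keeps silent Hox genes silent, had a median of -0.01 over 22 genes with 1 past 2-fold (Phf19, with 12 and 5 reads), and the trithorax group, which keeps active ones active, had 0.07 over 11 genes with 0 past 2-fold. Ezh2, the methyltransferase of Polycomb, had 442 and 689 reads, and Kmt2a, a methyltransferase that maintains Hox expression, 1301 and 1518.

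Retinoic acid switches on Hox genes in order along the embryo. Of 16 genes of its pathway with at least 10 reads, 3 were over 2-fold lower in the library labelled ERAP1+/- and 1 was over 2-fold higher, with a median log2 ratio of -0.20. Crabp2, a binding protein for retinoic acid that is abundant in skin, had 110 and 0 reads. It was 43.9-fold lower against the floor, with an interval that starts at 35.1-fold. Cyp26b1, which breaks retinoic acid down, had 132 and 28 reads, 5.64-fold lower (3.73 to 8.82), and Aldh1a3, which makes it, had 72 and 39, 2.21-fold lower (1.48 to 3.35). Another synthesis enzyme, Aldh1a2, had no read in WT and 19 in the other library. This is 5.29-fold higher against the floor, with an interval that starts at 3.90-fold. Synthesis genes thus lay on both sides.

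Of the 8 genes flanking the clusters with at least 10 reads, 0 were past 2-fold, and their median log2 ratio was 0.06. Beyond Hoxa, Skap2 had 656 and 611 reads, a ratio of 0.778 (0.696 to 0.870), and Hibadh 461 and 723, a ratio of 1.31 (1.16 to 1.48). Next to Hoxd, Lnpk had 139 and 132 reads (log2 ratio -0.33, interval -0.69 to 0.02) and Mtx2 140 and 179 (0.09), and both intervals included 0. Evx2, a homeobox gene between Lnpk and Hoxd13, had 78 and 64 reads, a log2 ratio of -0.55 (-1.05 to -0.05). Next to Hoxc, Smug1 had 125 and 178 reads and Cbx5 1063 and 1301, and their intervals also included 1. Among the noncoding RNAs of the Hox loci, 7 had at least 10 reads, with a median of -0.01 and 2 past 2-fold higher, Hoxaas3 and Hoxaas2 (4 and 16 reads), both in Hoxa. Hoxa11os, which lies across from Hoxa11, had 408 and 485 reads, and Hottip, at the posterior end of Hoxa, 110 and 171, a ratio of 1.30 (1.02 to 1.66). Hotair, a noncoding RNA inside Hoxc, had 5 and 2 reads. Hoxa11os thus had more reads than Hoxa11 in both libraries, and its 800 bases of exon shared with that gene on the other strand make the split between them uncertain.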

How the data were processed

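RNA of 3 mice per genotype was pooled into 1 QuantSeq library each and read single-end at 75 nt. The deposited values are counts of reads per gene symbol, which the authors made on GRCm38 and did not normalize. The methods name STAR with HTSeq and also Bowtie2 with RSEM, and which made the counts is not stated. Annotation and counting choices can split reads between overlapping Hox genes.

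Library sizes were adjusted by TMM in edgeR 4.0.16 (R 4.3.3), with a factor of 0.958 for WT and 1.04 for the library labelled ERAP1+/-. Ratios of scaled reads carry exact conditional 95% intervals (scipy 1.17.1), for counting error only. Genes with at least 10 reads and a ratio past 2-fold were counted. A gene with no read was set at the floor of 3 reads, also in medians. The calls and intervals were tested on simulated counts that held counting error only, so this test does not cover differences between mice. The genes changed in it were drawn from features with more reads than any Hoxc gene. DESeq2 1.42.0 size factors, total counts, other thresholds and reduced gene sets were alternatives.

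Members, the 17 gene lists and the within-library ratios were chosen with earlier results of these data known. Every Hox gene with at least 10 reads is named, and of each list at most 4 genes past 2-fold and those that define a tissue. Other list genes (Meis1, Meis2, Ezh2, Kmt2a, Cdx1, Cdx2, Evx2, Hotair, Hottip, Hoxa11os, Hoxb5os, Myocd, Fabp6, Slc10a2, Enpep and the neighbours of the clusters) were chosen after their values were seen. Positions come from GENCODE M21, start windows from RefSeq (GRCm38.p6). Protein features were not analysed here, nor were Haglros, Hoxc13as, Prac1 and Prac2. The single values of some genes counted in the sums and lists are not reported here.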

Additional observations from a re-analysis of the deposited data

How the results depend on the processing

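No paired analysis was possible because there is 1 library per genotype, and for the same reason no replicate could be left out. Of 245 recomputed values, 223 stayed within the counting interval of the reported value or, for counts of genes, near the reported count. None of the summed log2 ratios of Hoxb, Hoxc and Hoxd changed sign. Total count scaling moved every log2 ratio up by 0.13, which put Hoxa13 (0.10), Hoxb9 (0.09) and paralogs 1 to 3 (0.061) above 0 and Hoxd13 (-0.88) short of 2-fold. It gave a median of -0.29 over the Hox genes and sums of -0.36 for all of them, 0.083 for Hoxa, -0.24 for Hoxb, -0.89 for Hoxd, -0.053 for paralogs 4 to 8 and -0.44 for paralogs 9 to 13, and left 1 smooth muscle marker and 0 colon markers past 2-fold. With total counts, 5 enteric neuron and glia markers were past 2-fold higher and 0 lower. DESeq2 size factors moved the log2 ratios by 0.0013. A 4-fold threshold called 4 Hox genes (1 higher and 3 lower), and the counting interval called 17. By the level rule, a pseudocount of 0.1 gave 2 genes and no filter on the level gave 8 (1 higher and 7 lower). With at least 20 reads required, 0 caudal or ParaHox genes and 0 Polycomb genes were past 2-fold. Without the gene with the most reads, the sums were -0.54 over all, 0.037 for Hoxa, which changed sign, -0.13 for Hoxb and -0.77 for paralogs 9 to 13. Without genes that overlap another Hox gene, they were -1.58 for Hoxc, -0.42 for paralogs 1 to 3 and -0.045 for paralogs 4 to 8. Without the 5 genes across from Hoxaas3, an alternative chosen after seeing the data, 8 were called, all lower. Depth limits the Hoxc values most, where the library labelled ERAP1+/- held 23 reads over 9 genes, and the variation between mice cannot be estimated.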

Other observations

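Within each library, further pairs of Hox genes were compared after their values were seen. Hoxb9 reads per Hoxc9 read were 9.33 in the WT library and 109 in the library labelled ERAP1+/-, a ratio 11.7 times as high (3.56 to 60.3), although both genes carry the same paralog number. Hoxd9 per Hoxb9 gave no detectable difference (fold 1.23, interval 0.609 to 2.49). Within Hoxd, Hoxd12 reads per Hoxd13 read were 1.96-fold lower in the library labelled ERAP1+/- (1.22 to 3.24), so that these neighbours differed by unequal factors.

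Per fibroblast marker read, Hoxa reads were 1.13 times as high in the library labelled ERAP1+/- (1.04 to 1.22) and Hoxd reads 1.74-fold lower (1.62 to 1.88). Per enteric neuron and glia marker read, Hoxa reads were 1.57-fold lower (1.41 to 1.76) and Hoxd reads 3.09-fold lower (2.78 to 3.43). The Hoxd value thus depended on the tissue it was set against, from a factor near 1 for smooth muscle to these folds.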
